A study of Sus scrofa with 36 samples.

Results

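Cells of the heart are held to each other and to the basement membrane by surface receptors and secreted matrix proteins, and the genes for such proteins were followed in the hearts of young pigs. The genes were chosen by symbol and biotype, with earlier results of these data known. The rule took protein-coding genes whose symbol begins with ITGA, ITGB, LAMA, LAMB, LAMC, ADAMTS, PCDH, CLDN or NECTIN. It also took those with CDH, DSC or DSG followed by a number, and CDH2 was left out. The rule matched 53 genes, and 44 of them had at least 10 counts in at least 3 of 12 libraries. They stood among 5526 genes that passed the same count filter, out of 9815 genes in the table. The table used here covers chromosomes 1, 2, 6 and 13, so each family was seen only in part. In addition, 4609 rows of the table carry no symbol. A reference symbol fits the rule for 5 of these as coding genes, and they were not taken up. The 44 genes were 5 laminin chains, 2 integrin α chains, 2 integrin β chains, 10 ADAMTS proteases and ADAMTS-like proteins, 11 cadherins, 9 protocadherins, 3 claudin genes, 1 nectin and 1 desmosomal cadherin.

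Hearts of untreated domestic Yorkshire pigs of both sexes were collected on postnatal day 1 (P1), P3, P7 and P28, around the time when cardiomyocytes of newborn pigs leave the cell cycle. The batch named cd held 12 pigs, 3 at each age, and gave 1 rRNA-depleted total RNA library per pig. All groups carry the same genetic background as far as the labels say, and per the study RNA came from whole hearts, cardiomyocytes together with other cell types. Libraries are named here by age and by the number 4, 5 or 6 of their column, and values of an age are listed in that order.

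Basement membranes are thin sheets built on laminins, trimers of an α, a β and a γ chain, with type IV collagen, nidogen and perlecan. Integrins are pairs of an α and a β chain that bind laminins and other matrix proteins outside the cell and actin-linked adaptors inside it. ADAMTS proteases cut procollagens and proteoglycans, ADAMTS-like proteins lack the protease domain and bind microfibrils, and cadherins, protocadherins, claudins and nectins join neighbouring cells. In the heart these genes are shared out among cardiomyocytes, endothelial cells, fibroblasts and Schwann cells, and in RNA from whole tissue a smaller number of such cells cannot be told apart from less RNA per cell.

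Total counts ranged from 8887176 to 14883849 per library, and the 44 genes together took 0.898% to 1.12% of them. The 9 genes of the signal recognition particle RNA (Metazoa_SRP) took 7.09% to 19.7%. P1 library 4 had the lowest normalization factor, 0.9004, and P3 library 5 was the highest library for 12 of the 44 genes (27.3%) and for 22.2% of all genes tested, so counts are also given without both. The label heart was checked against 9 cardiomyocyte markers, among them TNNI3, MYBPC3 and ACTC1, whose summed level was 74410 to 99100 CPM (counts scaled to a common library size) in every library.

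More of the 44 genes passed between P28 and P1 or P7 than within the first week, and the same was true of all genes tested. Of all genes, 15.3% passed between P1 and P28 and 18.8% between P7 and P28, against 0.0543% to 2.21% within the first week. P3 was not tested against P28. With edgeR's quasi-likelihood test, 12 of the 44 genes (27.3%) differed among P1, P3, P7 and P28. The threshold was an adjusted p under 0.05 (Benjamini-Hochberg), which is meant below by passing, and 21.4% of all genes tested passed it. At an unadjusted p of 0.05 or less, 27 of the 44 did so, where 37.5% of all genes did. The 12 genes were the laminin chain LAMA1, the integrin chain ITGA9, ADAMTS1, ADAMTS2, ADAMTS17, ADAMTSL1, ADAMTSL5, the cadherin CDH19 and the protocadherins PCDH12, PCDHAC2, PCDHB7 and PCDHGB5. Without P1 library 4 and P3 library 5, 18 genes passed (31% of all genes). Without P28 library 5 the count was 4 (13.7% of all genes) and without P28 library 6 it was 6 (13.1% of all genes).

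**Figure D1:**
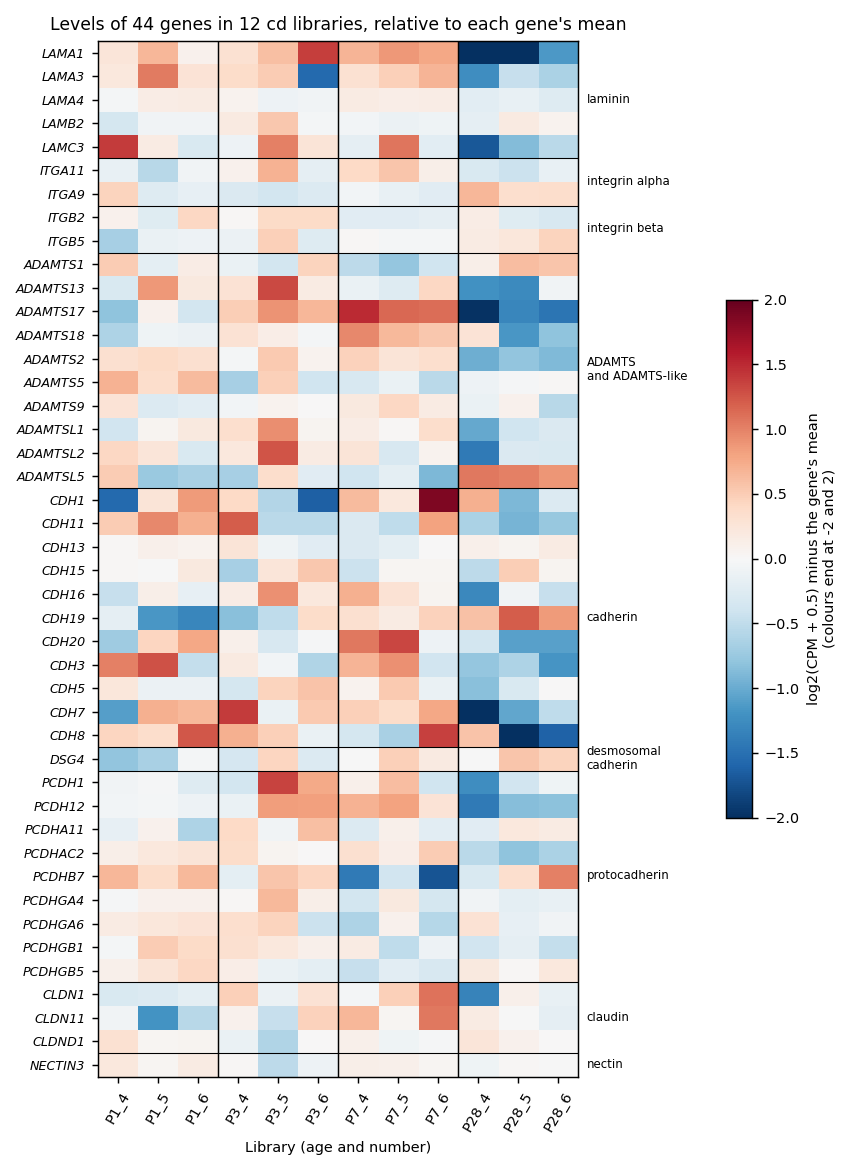
Levels of the 44 genes (rows, by family) in the 12 libraries (columns, by age), as log2(CPM + 0.5) minus the mean of the gene over the 12 libraries; red is above and blue below that mean, and colours end at -2 and 2. The P28 columns are blue for most laminins and for ADAMTS2, ADAMTS17 and PCDH12, and red for ADAMTSL5 and CDH19.

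The lowest of the 4 age means fell at P28 for 24 of the 44 genes (54.5%), against 33.7% of all genes tested. The highest mean fell at P28 for 7 of them (15.9%), against 32.3% of all genes. Between P1 and P28, 9 of 44 genes passed (20.5%), where 15.3% of all genes did. Of these, 2 were higher at P28 (7.38% of all genes were) and 7 were lower (7.93% of all genes were). The log2 fold change was below 0 for 33 of the 44, with a median of -0.22 against 0.00 over all genes, and the median was -0.35 without P28 library 5. The libraries of the 2 ages did not overlap for 18 of the 44, where 44.4% of all genes had no overlap. Under the looser rule of the study, an unadjusted p of 0.05 or less with an absolute log2 fold change over 0.5, 4 genes were higher and 14 lower, 18 in all, where 23.1% of all genes met that rule. Without P1 library 4 and P3 library 5, 18 genes passed (23.7% of all genes). Without P3 library 5 alone 14 did (25.6% of all genes), and without P1 library 5 the count was 5 (9.54% of all genes).

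Between P7 and P28, 15 of 44 genes passed (34.1%), where 18.8% of all genes did. In this comparison 5 genes were higher at P28 (8.34% of all genes were) and 10 were lower (10.5% of all genes were). The median log2 fold change was -0.57 (0.01 over all genes) and -0.37 without P28 library 4, and the libraries did not overlap for 27 of the 44, where 47% of all genes had no overlap. The looser rule was met by 4 higher and 15 lower genes, where 25.1% of all genes met it. The count fell to 7 without P7 library 4 or P7 library 5, to 8 without P28 library 5 or P28 library 6 and to 9 without P7 library 6, while 10.4% to 12.9% of all genes passed. It was 21 without P1 library 4 and P3 library 5 (31.1% of all genes). The comparisons from P1 and from P7 share the P28 libraries, so that they are not independent of each other.

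Few differences were seen within the first week. Between P1 and P3 none of the 44 genes passed in edgeR or limma voom and 1 did in DESeq2, while 9 had an unadjusted p under 0.05 (15.2% of all genes). In edgeR 1 passed without P3 library 5 (0.127% of all genes), and DESeq2 called 2.21% of all genes. Over all genes 0.0543% passed, and the looser rule was met by 4 of the 44 and by 10.6% of all genes. Between P3 and P7 none passed in edgeR or limma voom and 1 did in DESeq2, while 5 had an unadjusted p under 0.05 (18.9% of all genes). Over all genes 2.21% passed in edgeR and 6.57% in DESeq2, and the looser rule was met by 3 of the 44 and by 13% of all genes. Between P1 and P7 only ADAMTS17 passed, where 2.01% of all genes did, and the looser rule was met by 13 of the 44 and by 11.7% of all genes. The count for P1 against P7 was 3 without P1 library 4 and P3 library 5 (1.57% of all genes). With 1 library left out it was 5 without P3 library 5 (5.95% of all genes), 3 without P3 library 4 (3.38%), 2 without P3 library 6 (3.84%), 2 without P7 library 5 (0.38%) and 0 without P1 library 6 or P7 library 4 (0.416% and 0.561% of all genes). DESeq2 called 7 (6.59% of all genes) and limma voom 4 (3.6% of all genes) in this comparison.

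**Figure D2:**
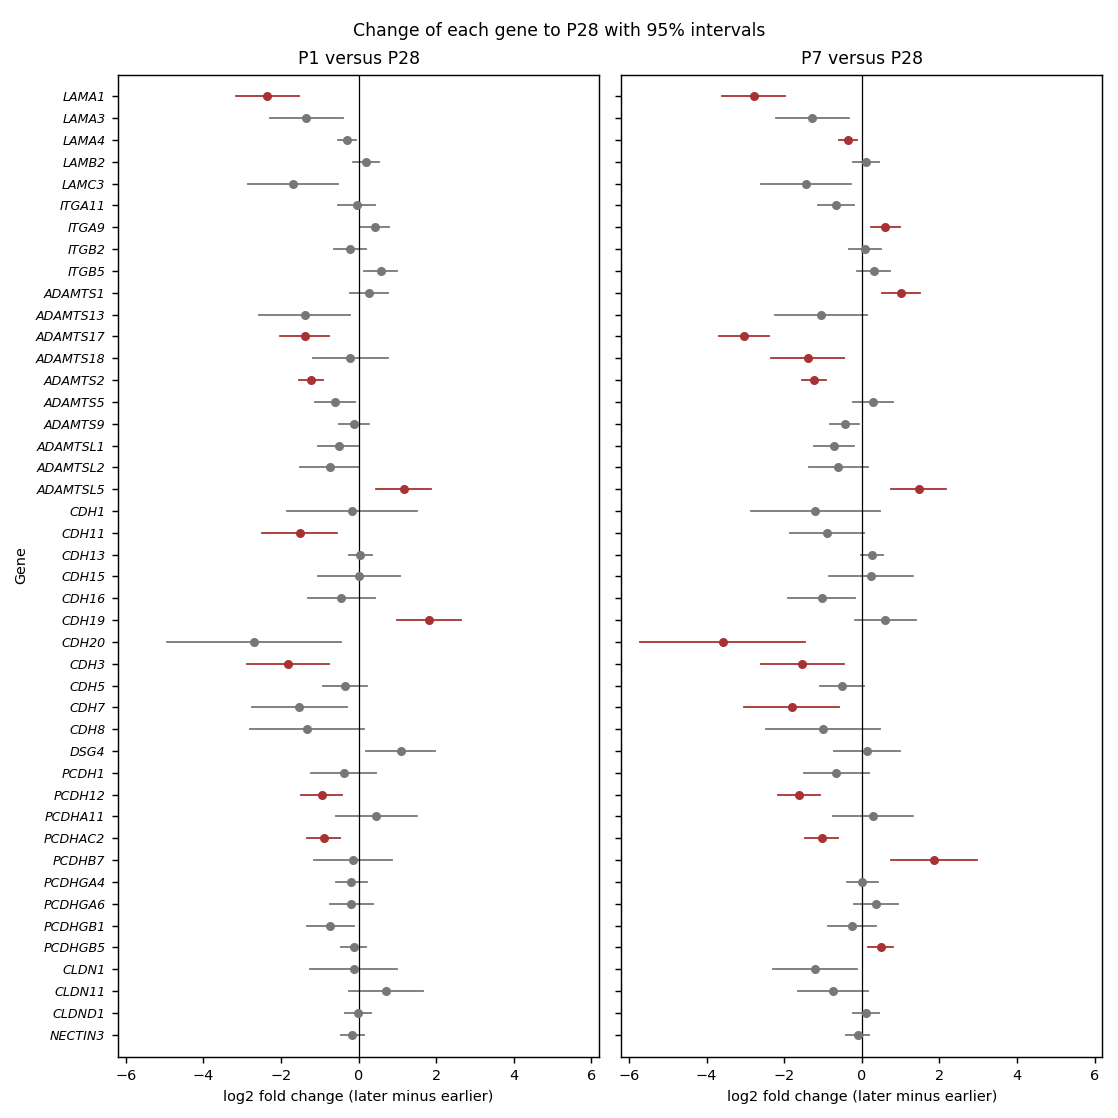
Log2 fold change of each of the 44 genes from P1 to P28 (left) and from P7 to P28 (right), later minus earlier, with 95% intervals as bars; red marks genes that passed edgeR's quasi-likelihood test at an adjusted p under 0.05 and grey the others. The points of 33 genes on the left and 27 on the right lie below 0.

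Of the 5 laminin chains, 1 passed between P1 and P28 and 2 between P7 and P28, all of them lower at P28. LAMA1 encodes the α1 chain, best known from the first basement membranes of the embryo (ENSSSCG00000034767, chromosome 6, 100332873 to 100468454 as the file gives it). Its level was 11.2, 15.1 and 9.97 CPM at P1, 11.6, 14.4 and 25.2 CPM at P3, 15.4, 17.4 and 16.4 CPM at P7, and 1.77, 1.48 and 3.94 CPM at P28. Every P28 library was below every younger library. LAMA1 was 5.11-fold lower at P28 than at P1 (log2 fold change -2.35, SE 0.38, edgeR adjusted p = 0.00186) and 6.92-fold lower than at P7 (log2 fold change -2.79, SE 0.38, edgeR adjusted p = 0.000733). Both calls held without each library in turn.

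LAMA4, the α4 chain of vascular and cardiomyocyte basement membranes, changed far less. Its level was 1521, 1734 and 1741 CPM at P1, 1632, 1448 and 1491 CPM at P3, 1749, 1718 and 1738 CPM at P7, and 1347, 1402 and 1311 CPM at P28. The P28 libraries were the lowest 3 of the 12. LAMA4 was 1.28-fold lower at P28 than at P7 (log2 fold change -0.36, SE 0.11, edgeR adjusted p = 0.033), and from P1 the log2 fold change was -0.30 with an edgeR adjusted p of 0.0748. The call against P7 was lost, with an adjusted p of up to 0.101 in edgeR, without P1 library 5 or 6, without any 1 of the P7 libraries, and without any 1 of the P28 libraries. With no filter on low counts it was lost as well (edgeR adjusted p = 0.0713).

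LAMB2, the β2 chain found at vessels and in heart muscle, had the most counts of the laminins. It measured 2221, 2706 and 2680 CPM at P1, 3203, 4088 and 2749 CPM at P3, 2715, 2610 and 2671 CPM at P7, and 2503, 3193 and 2981 CPM at P28. All P3 libraries lay above those of P1 and P7, but P3 passed against neither (edgeR adjusted p = 0.276 and 0.275). The P28 libraries overlapped with those of every other age. The highest library was P3 library 5, and the log2 fold change from P1 to P28 was 0.19 (95% interval -0.15 to 0.53). LAMA3, the α3 chain of epithelial laminin, and LAMC3, the γ3 chain, had log2 fold changes from P1 to P28 of -1.34 (SE 0.43, edgeR adjusted p = 0.0542) and -1.68 (SE 0.54, edgeR adjusted p = 0.0517), and neither passed. In both genes the P28 libraries lay below the P1 and the P7 libraries.

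Per kilobase of the gene length in the file, LAMB2 was the most abundant of the 44 genes (453.2 CPM per kilobase over the 12 libraries) and LAMA4 the third (237.3). LAMA3, LAMC3 and LAMA1 measured 1.98, 1.64 and 1.26 CPM per kilobase. The ratio of LAMB2 to LAMA4 per kilobase within a library was 1.59 ± 0.0554 at P1, 2.32 ± 0.56 at P3, 1.61 ± 0.0174 at P7 and 2.24 ± 0.252 at P28 (SD, n = 3 each). It was between 1.53 and 1.64 in the 6 libraries of P1 and P7 and between 1.93 and 2.96 in the 6 libraries of P3 and P28, with no overlap, and this difference, noticed in the values, was not tested. LAMB2 overlaps USP19 and CCDC71 in the file, and the strand setting of the counting is not given in the sources used here.

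**Figure D3:**
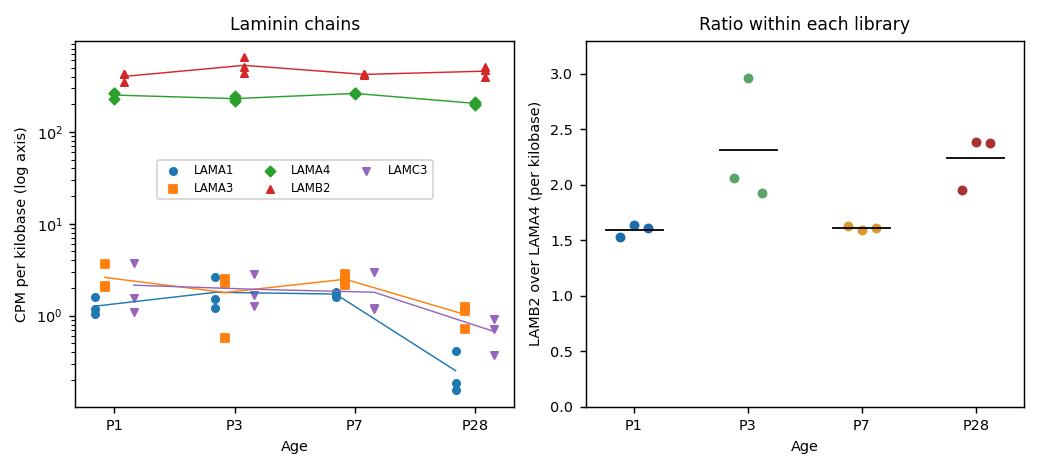
Left, CPM per kilobase (log axis) of the 5 laminin chains in each library by age, with lines through the age means; right, the ratio of LAMB2 to LAMA4 per kilobase in each library, with bars at the age means. LAMA1 drops at P28 to 0.252 CPM per kilobase on average, and the ratio lies at 1.53 to 1.64 at P1 and P7.

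The other basement membrane genes of a pathway list, 10 of which were tested, passed in part. Between P1 and P28, 0 were higher and 2 lower: FREM1, an extracellular protein of the Fraser complex (log2 fold change -3.07, SE 0.89, edgeR adjusted p = 0.0352), and FBLN2, the elastic-fibre protein fibulin 2 (log2 fold change -0.85, SE 0.17, edgeR adjusted p = 0.00683). Between P7 and P28, 3 of the 10 were lower and 0 higher. The median log2 fold change of the 10 was -0.09 from P1 and -0.34 from P7, against 0.00 and 0.01 over all genes. The summed level of the 10 genes was 16930 CPM in P3 library 5 and 6752 to 12020 CPM in the other 11 libraries.

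Among the integrin chains, ITGA9 was the only one of 4 that passed, and it was higher at P28. ITGA9 pairs with the β1 chain and binds tenascin C, VCAM1 and other ligands (ENSSSCG00000011245, chromosome 13, 22182321 to 22655704). It measured 1494, 915.5 and 983 CPM at P1, 894.9, 854.6 and 908.5 CPM at P3, 1060, 989 and 935.2 CPM at P7, and 1745, 1381 and 1396 CPM at P28. The P28 libraries exceeded all of P3 and P7, and P1 library 4 lay among them. ITGA9 was 1.52-fold higher at P28 than at P7 (log2 fold change 0.60, SE 0.17, edgeR adjusted p = 0.0289) and did not pass from P1 (log2 fold change 0.41, SE 0.17, edgeR adjusted p = 0.121). The call against P7 was lost, with an edgeR adjusted p of up to 0.107, without P7 library 4, 5 or 6 and without P28 library 4 or 6. ITGA9 overlaps GOLGA4 in the file.

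ITGB5, which pairs with the αV chain and binds vitronectin, was the most abundant integrin chain per kilobase (102 CPM per kilobase over the 12 libraries, against 80.5 for ITGA9). It measured 195, 281.3 and 286.6 CPM at P1, 284, 428 and 258.8 CPM at P3, 313.6, 300.7 and 301.2 CPM at P7, and 346.3, 361.7 and 422 CPM at P28. The P28 libraries were above those of P1 and P7 but overlapped with P3 library 5, and the log2 fold change from P1 to P28 was 0.57 (SE 0.19, edgeR adjusted p = 0.0645). ITGA11, a collagen-binding chain of fibroblasts, was at 36.0 ± 3.66 CPM at P28 and 57.0 ± 8.56 CPM at P7 (SD, n = 3 each; edgeR adjusted p = 0.052). ITGB2, the β2 chain of leukocytes, was between 25.7 and 43.1 CPM in all 12 libraries, and its log2 fold change from P1 to P28 was -0.23 (95% interval -0.64 to 0.18).

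Ligands of integrins outside the laminins moved in both directions. Of 7 ligands tested, 1 was higher and 3 were lower at P28 than at P1, and again 1 higher and 3 lower than at P7. TNC, tenascin C, a ligand of ITGA9, had a log2 fold change from P1 to P28 of -2.70 (SE 0.56, edgeR adjusted p = 0.00761), with 219.8 ± 160.9 CPM at P1 and 33.8 ± 11.8 CPM at P28 (SD, n = 3 each). P1 library 4 raised that P1 mean, at 402.5 CPM against 157.3 and 99.5 CPM in P1 libraries 5 and 6. FBN1, the microfibril protein fibrillin 1, had one of -1.82 (SE 0.16, edgeR adjusted p = 6.05e-05), and THBS2, thrombospondin 2, one of -0.74 (SE 0.21, edgeR adjusted p = 0.0357). EDIL3, a secreted ligand of αV integrins, rose by 1.11 on the log2 scale (SE 0.27, edgeR adjusted p = 0.0177). Of 10 integrin adaptors and focal adhesion genes, 1 was higher at P28 than at P1, KANK1 (log2 fold change 0.87, SE 0.22, edgeR adjusted p = 0.0197), a regulator of actin and microtubules at adhesion sites, and 0 were lower. From P7, 2 of these 10 were higher and 1 lower.

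Of the 10 ADAMTS and ADAMTS-like genes, 3 passed between P1 and P28, 1 higher and 2 lower, and 5 between P7 and P28, 2 higher and 3 lower. ADAMTS17, a protease tied to fibrillin microfibrils, rose through the first week and was lowest at P28 (ENSSSCG00000038452, chromosome 1, 138619701 to 139016125). It measured 4.627, 9.001 and 6.426 CPM at P1, 12.0, 16.2 and 13.6 CPM at P3, 24.7, 19.3 and 18.8 CPM at P7, and 1.77, 3.13 and 2.76 CPM at P28. No library of any age overlapped with a library of another age. ADAMTS17 was 3.13-fold higher at P7 than at P1 (log2 fold change 1.65, SE 0.27, edgeR adjusted p = 0.0126), then 8.20-fold lower at P28 than at P7 (log2 fold change -3.04, SE 0.29, edgeR adjusted p = 0.00018). From P1 to P28 the log2 fold change was -1.39 (SE 0.29, edgeR adjusted p = 0.008). Both calls at P28 held without each library in turn, and the call at P7 was lost without P1 library 6 or P7 library 4 (edgeR adjusted p up to 0.0617). The file places 2 other coding genes and a pseudogene inside its span.

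ADAMTS2, which removes the N-terminal propeptide of fibrillar procollagens, was lower at P28 than at P1 and at P7 (ENSSSCG00000024043, chromosome 2, 79182971 to 79406873). It measured 236.3, 245.3 and 235.1 CPM at P1, 182.5, 271.3 and 197.7 CPM at P3, 259.7, 226.2 and 237.4 CPM at P7, and 95.8, 108.2 and 101.9 CPM at P28. The 3 P28 libraries lay far below the other 9, which overlapped with each other. ADAMTS2 was 2.34-fold lower at P28 than at P1 (log2 fold change -1.23, SE 0.14, edgeR adjusted p = 0.000316) and 2.36-fold lower than at P7 (log2 fold change -1.24, SE 0.14, edgeR adjusted p = 0.000305), and both calls held without each library in turn.

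In the other direction, ADAMTSL5 and ADAMTS1 were higher at P28. ADAMTSL5, a fibrillin-binding protein without a protease domain (ENSSSCG00000013433, chromosome 2, 76966766 to 76975820), measured 159.7, 67.1 and 71.5 CPM at P1, 70.5, 143.2 and 95.9 CPM at P3, 85.4, 97.8 and 59.9 CPM at P7, and 235.6, 226.6 and 208.2 CPM at P28. All P28 libraries lay above all others, and P1 library 4 and P3 library 5 were the highest of their ages. It was 2.25-fold higher at P28 than at P1 (log2 fold change 1.17, SE 0.33, edgeR adjusted p = 0.0308) and 2.76-fold higher than at P7 (log2 fold change 1.46, SE 0.33, edgeR adjusted p = 0.00915). The call from P1 was lost, with an edgeR adjusted p of up to 0.121, without P1 library 5 or 6 or any 1 of the P28 libraries, whereas the call from P7 held without each library.

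ADAMTS1, a protease that cuts versican and aggrecan (ENSSSCG00000012026, chromosome 13, 190276424 to 190286205), measured 384.8, 236.1 and 297.6 CPM at P1, 246.3, 208.6 and 365.8 CPM at P3, 187.1, 158.4 and 204.3 CPM at P7, and 294, 416.3 and 394.6 CPM at P28. All P7 libraries were below all libraries of P1, P3 and P28. ADAMTS1 was 2.01-fold higher at P28 than at P7 (log2 fold change 1.01, SE 0.23, edgeR adjusted p = 0.00935), and P28 did not pass against P1 (log2 fold change 0.27, edgeR adjusted p = 0.452). Without P7 library 5 the edgeR adjusted p against P7 was 0.0542. ADAMTS5, the aggrecanase gene that lies 75.2 kb from ADAMTS1, had its lowest mean at P7 as well, 62.9 ± 8.86 CPM against 116.4 ± 14.7 CPM at P1 (SD, n = 3 each; log2 fold change -0.89, edgeR adjusted p = 0.0693).

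ADAMTSL1, a matrix protein called punctin, passed among the 4 ages (edgeR adjusted p = 0.0417) but in none of the 5 comparisons of 2 ages that were tested. P3, its highest age, was not tested against P28, its lowest. It measured 205, 276 and 306 CPM at P1, 336.6, 507.2 and 275.8 CPM at P3, 294.2, 269.8 and 340.9 CPM at P7, and 130.2, 202.3 and 217.3 CPM at P28. Its highest value was that of P3 library 5, and the P28 libraries lay below P3 and P7 but overlapped with P1. ADAMTS18, another secreted protease of the family, had 16, 27 and 23 counts at P1, 29, 20 and 26 at P3, 51, 54 and 40 at P7, and 33, 8 and 10 at P28. In CPM the P7 libraries (4.58, 3.59 and 3.27) were above all others, and P28 ranged from 2.65 in library 4 to 0.659 in library 5. ADAMTS18 was 2.63-fold lower at P28 than at P7 (log2 fold change -1.39, SE 0.43, edgeR adjusted p = 0.0402). That call was lost, with an edgeR adjusted p of up to 0.136, without P1 library 5 or 6, without any 1 of the P7 libraries and without P28 library 5 or 6, and also with only P7 and P28 in the fit (edgeR adjusted p = 0.0583). Without P28 library 4 the log2 fold change was -2.21.

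ADAMTS9, a protease that cuts versican and aggrecan, had the most counts of the family and passed in no tested comparison. It measured 363.9, 248.7 and 260.6 CPM at P1, 290.8, 317.5 and 303.9 CPM at P3, 344.8, 403.6 and 338.9 CPM at P7, and 274.1, 320.4 and 205.1 CPM at P28. The P28 libraries lay below those of P7 and overlapped with those of P1, and the log2 fold change from P1 to P28 was -0.13 (95% interval -0.51 to 0.26). ADAMTS13, which cuts von Willebrand factor, and ADAMTSL2, a binder of fibrillin, neighbours at 63 kb on chromosome 1, had log2 fold changes from P1 to P28 of -1.39 and -0.74 and did not pass (edgeR adjusted p = 0.103 and 0.171).

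Of 4 protease inhibitors and ADAMTS substrates tested, 3 were lower and 0 higher at P28 than at P1, and all 4 were lower than at P7. VCAN, the proteoglycan versican, had a log2 fold change from P1 to P28 of -1.04 (SE 0.17, edgeR adjusted p = 0.00232) and RECK, a membrane inhibitor of matrix proteases, one of -0.59 (SE 0.12, edgeR adjusted p = 0.00699). The third was FBN1, given above among the ligands. The summed level of the 4 genes was 4407 to 4931 CPM at P1, 2727 to 3493 at P3, 4458 to 4854 at P7 and 1392 to 1655 at P28. The fibroblast marker TCF21, the only gene of the fibroblast list that was tested, was lower at P28 too, with 38.2 to 44.2 CPM at P1, 31.2 to 34.8 CPM at P7 and 18.1 to 22.4 CPM at P28 (log2 fold change from P1 -1.05, SE 0.14, edgeR adjusted p = 0.000678). The part of fibroblasts in the lower values of ADAMTS2, ADAMTS17, VCAN, RECK and FBN1 was not tested.

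**Figure D4:**
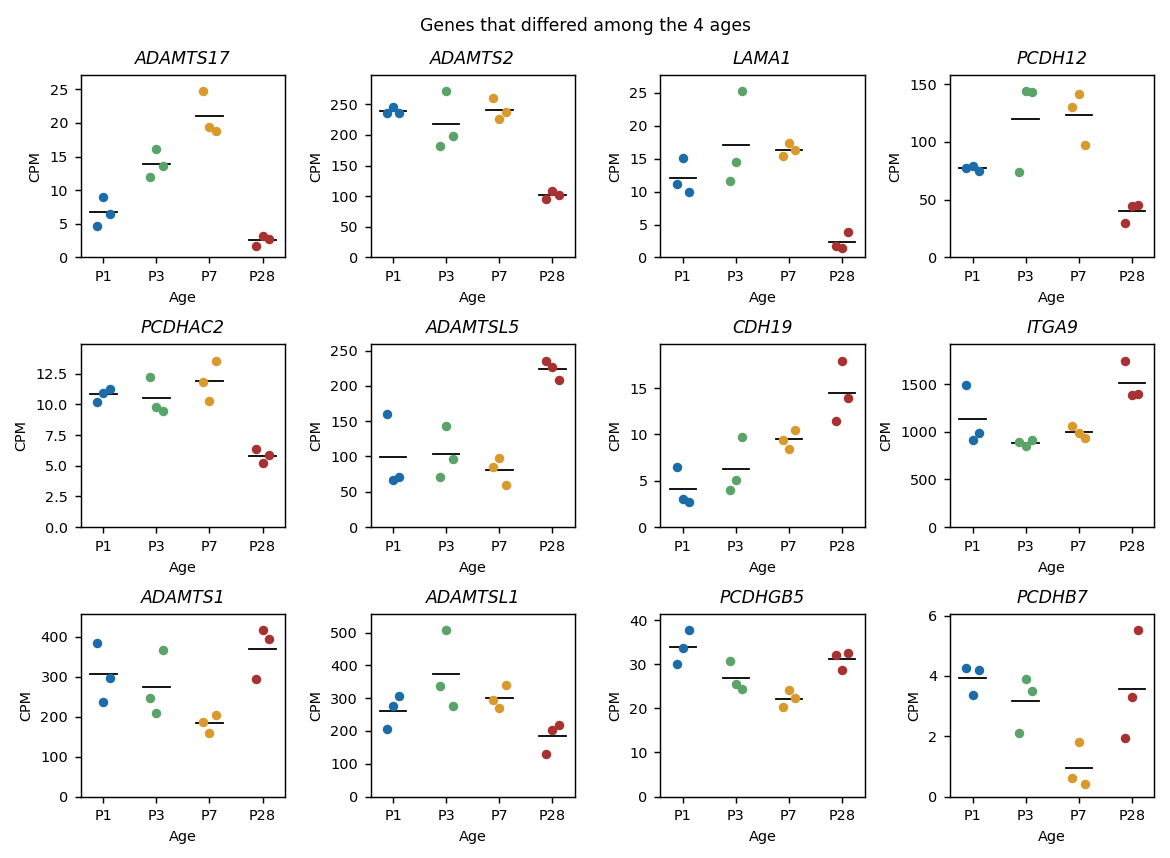
CPM (vertical axes, from 0) of the 12 genes that differed among the 4 ages, by age, with 1 point per library and a bar at the mean. ADAMTS17, ADAMTS2, LAMA1, PCDH12 and PCDHAC2 have their 3 lowest points at P28, ADAMTSL5 and CDH19 their highest mean at P28, and ADAMTS1, PCDHGB5 and PCDHB7 their lowest mean at P7.

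Of the 11 cadherins, 1 was higher and 2 were lower at P28 than at P1, and 3 were lower than at P7. CDH19, a cadherin of Schwann cells and their precursors, was higher at P28 (ENSSSCG00000004885, chromosome 1, 155669136 to 155758548). It measured 6.49, 3.02 and 2.72 CPM at P1, 3.97, 5.08 and 9.77 CPM at P3, 9.43, 8.44 and 10.5 CPM at P7, and 11.39, 17.95 and 13.89 CPM at P28. All P28 libraries were above all others. CDH19 was 3.52-fold higher at P28 than at P1 (log2 fold change 1.82, SE 0.38, edgeR adjusted p = 0.00806), and the call held without each library in turn. P28 did not pass against P7 (log2 fold change 0.61, edgeR adjusted p = 0.273). It was the only gene of the Schwann and neuronal marker list that was tested, so that the number of such cells could not be set beside it.

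CDH11, a cadherin of fibroblasts and other mesenchymal cells (ENSSSCG00000002795, chromosome 6, 25783595 to 25933634), was lower. It measured 151.1, 206.8 and 173.5 CPM at P1, 245.6, 72.6 and 73.1 CPM at P3, 86.7, 74.2 and 186.4 CPM at P7, and 67.8, 55.2 and 62.7 CPM at P28. The P28 libraries were below all others, and the P3 and P7 libraries were spread 3.39-fold and 2.51-fold within their age. CDH11 was 2.86-fold lower at P28 than at P1 (log2 fold change -1.52, SE 0.44, edgeR adjusted p = 0.0376). The call was lost without any 1 of the P1 or P28 libraries (edgeR adjusted p up to 0.106).

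CDH3, P-cadherin, which lies 35.7 kb from CDH1 on chromosome 6, was lower at P28 than at P1 and at P7. It measured 8.96, 10.8 and 2.88 CPM at P1, 4.80, 4.02 and 2.58 CPM at P3, 7.01, 8.37 and 3.11 CPM at P7, and 2.25, 2.55 and 1.58 CPM at P28. Library 6 was the lowest of every age, and its values at P1, P3 and P7 came close to the P28 values without overlapping them. The log2 fold change was -1.82 from P1 (SE 0.49, edgeR adjusted p = 0.0262) and -1.53 from P7 (SE 0.49, edgeR adjusted p = 0.0468). The call from P1 was lost without P1 library 4 or 5 or any 1 of the P28 libraries (edgeR adjusted p up to 0.0999), and that from P7 without P1 library 4, P7 library 4 or 5 or any 1 of the P28 libraries (up to 0.165). Neither call was made by limma voom, with an adjusted p of up to 0.105, and that from P1 was not made without P1 library 4 and P3 library 5 together.

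CDH7 and CDH20, cadherins best known from the nervous system, were lower at P28 than at P7 but were low throughout. CDH7 measured 2.84, 11.2 and 10.6 CPM at P1, 18.4, 6.03 and 9.77 CPM at P3, 9.43, 8.71 and 11.7 CPM at P7, and 1.12, 2.96 and 4.53 CPM at P28 (log2 fold change from P7 -1.80, SE 0.57, edgeR adjusted p = 0.0425). The call was lost, with an edgeR adjusted p of up to 0.128, without P1 library 6, P3 library 6, any 1 of the P7 libraries, or P28 library 4 or 5. CDH20 had 2, 13 and 16 counts at P1, 7, 3 and 7 at P3, 19, 33 and 6 at P7, and 4, 0 and 0 at P28. It passed against P7 (edgeR adjusted p = 0.0236) and not against P1 (edgeR adjusted p = 0.0976), no fold is given on so few counts, and the call was lost without P7 library 4 or 5 or P28 library 5 or 6 (edgeR adjusted p up to 0.0889) and in DESeq2.

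The most abundant cadherin, CDH13, passed in no tested comparison. CDH13 is T-cadherin, a membrane-anchored cadherin without a cytoplasmic part that binds adiponectin. It measured 1551, 1626 and 1595 CPM at P1, 1827, 1439 and 1300 CPM at P3, 1252, 1323 and 1529 CPM at P7, and 1640, 1582 and 1710 CPM at P28. Its log2 fold change from P1 to P28 was 0.05, with a 95% interval of -0.24 to 0.34, and per kilobase it was second to LAMB2 among the 44 genes (336.9 CPM per kilobase).

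CDH5, the VE-cadherin of endothelial junctions, lay between 146.8 and 388.8 CPM and did not pass (log2 fold change from P1 to P28 -0.35, 95% interval -0.91 to 0.22). CDH8 ranged from 7.00 to 100.8 CPM, with an 8.28-fold spread among the P28 libraries alone, and CDH1, the epithelial E-cadherin, ranged from 0.547 to 11.3 CPM with an 8.97-fold spread at P1. CDH15, M-cadherin of skeletal muscle, had a mean of 1.096 CPM at P1 and 1.097 CPM at P28, and CDH16, a kidney cadherin, one of 3.08 and 2.26 CPM, and neither passed. CDH1 and CDH8 did not pass in any of the 5 comparisons of 2 ages.

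Of 6 adherens junction and desmosome partners tested, 1 was higher and 2 were lower at P28 than at P1, and 0 passed from P7. PTPRM, a receptor phosphatase at cell contacts, rose by 0.47 on the log2 scale (SE 0.14, edgeR adjusted p = 0.0433). The catenins CTNNB1 and CTNNA1, which tie cadherins to actin, had log2 fold changes of -0.47 (SE 0.14, edgeR adjusted p = 0.0414) and -0.57 (SE 0.16, edgeR adjusted p = 0.0331). The highest CTNNA1 value was that of P1 library 4, 1973 CPM, where the other 11 libraries measured 959.6 to 1335 CPM.

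Of the 9 protocadherins, 2 were lower at P28 than at P1, and 2 were higher and 2 lower than at P7. PCDH12 is a protocadherin of endothelial cells (ENSSSCG00000014395, chromosome 2, 143550847 to 143565033). It measured 77.6, 78.9 and 75.3 CPM at P1, 73.7, 144 and 143.2 CPM at P3, 130.7, 141.2 and 97.3 CPM at P7, and 30.2, 44.5 and 45.4 CPM at P28. The P28 libraries were below all others, and P7 was above P1. PCDH12 was 1.93-fold lower at P28 than at P1 (log2 fold change -0.95, SE 0.24, edgeR adjusted p = 0.0215) and 3.08-fold lower than at P7 (log2 fold change -1.62, SE 0.25, edgeR adjusted p = 0.00129). The call from P7 held without each library in turn, and that from P1 was lost without P1 library 5 or 6 or P28 library 4 (edgeR adjusted p up to 0.0838). PCDH12 overlaps DELE1 and RNF14 in the file. Its neighbour at 49.1 kb, PCDH1, did not pass, with 73.3 ± 6.08 CPM at P1 and 56.1 ± 21.0 CPM at P28 (SD, n = 3 each).

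The endothelial marker list gave values to set beside CDH5 and PCDH12. Its 8 genes, of which CDH5 was 1, summed to 1174 to 1554 CPM at P1, 1058 to 1781 at P3, 1210 to 1548 at P7 and 1073 to 1154 at P28. From P1 to P28, TEK was higher and 0 of the 8 were lower, with a median log2 fold change of -0.32. From P7 to P28, 2 of the 8 were lower and 0 higher, with a median of -0.49. The part of endothelial cell number in the values of PCDH12 was not tested.

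The clustered protocadherins on chromosome 2, neuronal recognition proteins whose α and γ genes share their last exons, were counted in records that overlap. PCDHAC2 is listed with a length of 22970 bases and overlaps 10 other coding genes, PCDHA11 among them, and PCDHGA4 is listed with 30786 bases and overlaps PCDHGB1, PCDHGA6 and PCDHGB5. Their counts are therefore uncertain, since the treatment of shared exons is not given in the sources used here. PCDHAC2 measured 10.23, 10.95 and 11.29 CPM at P1, 12.3, 9.81 and 9.46 CPM at P3, 11.9, 10.3 and 13.6 CPM at P7, and 6.34, 5.19 and 5.91 CPM at P28. All P28 libraries were below all others, the log2 fold change was -0.90 from P1 (SE 0.20, edgeR adjusted p = 0.00973) and -1.03 from P7 (SE 0.20, edgeR adjusted p = 0.00361), and both calls held without each library in turn.

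PCDHGB5 and PCDHB7 had their lowest values at P7 and passed between P7 and P28. PCDHGB5 measured 30.2, 33.7 and 37.7 CPM at P1, 30.8, 25.5 and 24.5 CPM at P3, 20.2, 24.2 and 22.3 CPM at P7, and 32.1, 28.7 and 32.6 CPM at P28. The P7 libraries were the lowest 3 of the 12, and the log2 fold change from P7 to P28 was 0.48 (SE 0.15, edgeR adjusted p = 0.0402). The call was lost, with an edgeR adjusted p of up to 0.147, without P1 library 5 or 6, any 1 of the P7 libraries or any 1 of the P28 libraries, and with no filter on low counts (edgeR adjusted p = 0.0891).

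PCDHB7 had 57, 47 and 51 counts at P1, 23, 33 and 45 at P3, 7, 27 and 5 at P7, and 24, 40 and 56 at P28. In CPM the P7 libraries (0.629, 1.79 and 0.409) were below all others. PCDHB7 was 3.62-fold higher at P28 than at P7 (log2 fold change 1.86, SE 0.51, edgeR adjusted p = 0.0245), and the call was lost without P7 library 4 or 6 or P28 library 5 or 6 (edgeR adjusted p up to 0.103). Without P7 library 5 the log2 fold change was 2.75. Against P1, P7 did not pass (log2 fold change -2.01, edgeR adjusted p = 0.0598).

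PCDHGA4, with the most counts of the protocadherins, passed in no tested comparison. It measured 233.6, 250.6 and 252 CPM at P1, 240.5, 370.3 and 256.8 CPM at P3, 182.7, 271 and 185.9 CPM at P7, and 226.5, 207.2 and 214.1 CPM at P28. The highest value was that of P3 library 5, and the log2 fold change from P1 to P28 was -0.18 (95% interval -0.58 to 0.21). PCDHGA6, PCDHGB1 and PCDHA11 did not pass either, and their log2 fold changes from P1 to P28 were -0.19, -0.73 and 0.46.

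Claudin, nectin and desmosomal genes passed in no tested comparison. CLDND1, a claudin domain protein, measured 168.3, 140 and 141.2 CPM at P1, 124.6, 89.2 and 136.4 CPM at P3, 145.4, 128.7 and 134.3 CPM at P7, and 161.9, 143.8 and 137.1 CPM at P28. NECTIN3, an adhesion molecule of adherens junctions, measured 173.6, 154.5 and 166.9 CPM at P1, 151.9, 103.4 and 139.2 CPM at P3, 163, 160.2 and 153.9 CPM at P7, and 140.6, 152.1 and 149.4 CPM at P28. Both had their lowest value in P3 library 5, and their log2 fold changes from P1 to P28 were -0.02 (95% interval -0.35 to 0.31) and -0.16 (95% interval -0.46 to 0.13).

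DSG4, a desmoglein of hair follicles, was near the count filter. It measured 0.672, 0.792 and 1.48 CPM at P1, 1.11, 2.25 and 1.17 CPM at P3, 1.53, 2.33 and 1.80 CPM at P7, and 1.52, 2.47 and 2.27 CPM at P28 (log2 fold change from P1 to P28 1.09, SE 0.41, edgeR adjusted p = 0.0918). CLDN1 and CLDN11, tight junction strand proteins, lay between 0.321 and 5.32 CPM. Their means were highest at P7, 2.62 ± 1.21 and 3.89 ± 1.46 CPM (SD, n = 3 each), and the edgeR adjusted p from P1 to P7 was 0.306 and 0.098.

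The 9 genes below the count filter were mostly claudins. CLDN14, CLDN17 and CLDN18 had 0 counts in all 12 libraries, and CLDN16, CLDN8 and CLDN19 had at most 1, 3 and 3 counts in any library. The desmoglein DSG1 had at most 9, and PCDHB1 and PCDHA13 at most 2 and 10. CLDN14, CLDN17 and CLDN18 were thus not detected at this depth. CLDN8, CLDN16 and CLDN19 had a few reads, no more than the 3 counts that a count of 0 allows, and were very low.

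Of 6 tight junction partners tested, 1 was higher and 1 lower at P28 than at P1, and 1 was higher and 3 were lower than at P7. PATJ, a polarity scaffold, rose by 0.43 on the log2 scale from P1 (SE 0.13, edgeR adjusted p = 0.0357), and CGNL1, paracingulin, had a log2 fold change of -0.82 (SE 0.16, edgeR adjusted p = 0.00516).

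Markers of other cell types were measured in the same libraries. From P1 to P28, 2 of 9 cardiomyocyte markers were higher and 1 lower, and from P7 to P28 4 were higher and 0 lower. Of 5 leukocyte markers 1 was higher from P1 and the same number from P7, of 2 mural markers 0 passed, of 2 mesothelial and epicardial markers 1 (TBX18) was lower from P1 and from P7, and the only erythroid marker, EPB42, was lower from P7 alone. The 5 cycling cell markers summed to 156.1 to 210.2 CPM at P1, 144.9 to 308.3 at P3, 501 to 640.1 at P7 and 63.8 to 162 at P28, and all 5 were lower at P28 than at P7 while 1 was lower than at P1. ADAMTS17 also had its highest mean at P7 and its lowest at P28. The same held for ADAMTS2, ADAMTS9, ADAMTS18, CDH20, CLDN1, ITGA11, LAMA4, PCDH12 and PCDHAC2. How far these cell types bear on the values of the adhesion genes was not tested.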

How the data were processed

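The authors deposited read counts per gene of the 12 cd libraries, without normalization. Libraries were rRNA-depleted and made with a stranded kit. The counting tool, its strand setting and the build of the gene table are not given in the sources used here; the submitters' processing notes name STAR 2.7.9a, MultiQC 1.11 and Sscrofa10.2, and the study's text gives that build for the circRNA alignment. Of 45 of these genes found in RefSeq Sscrofa11.1, 43 start within 20 kb of the file's start. Positions are printed as in the file. The last line, which holds no counts, was left out. The circRNA and miRNA files were not used here, and no sequences were printed.

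Age came from the labels and the column names. The numbers 4 to 6 of the columns are not the sample numbers of the labels, and no label ties them to a litter or day. Libraries of the same number deviated together with an r over 0.1 in all 3 pairs only between P1 and P28 (r 0.331, 0.138 and 0.161). Pigs of an age were separate animals, and all pairs of libraries of an age differed by more than counting noise (chi-square per degree of freedom 14.4 to 202).

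Genes with at least 10 counts in at least 3 libraries were tested with edgeR 4.0.16 (R 4.3.3, TMM, quasi-likelihood, all 4 ages in 1 fit, no covariate), with p-values adjusted over 5526 genes. The 4 ages were tested together and in 5 pairs, and P3 was not tested against P28. The biological coefficient of variation was 0.211. CPM used TMM library sizes. The script was tested on simulated data with known changes. Alternatives were DESeq2 1.42.0, limma 3.58.1 voom, DESeq2's size factors, library sizes from coding genes, no filter, only the 2 ages compared, the column number as a block, the study's looser rule and each library left out. Leaving out P1 library 4 and P3 library 5 together was chosen after seeing the data. Plots were drawn with matplotlib.

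The genes and lists were chosen with earlier results of these data known. Named with every library's value were the genes that passed in any test and the gene of each family with the most counts. Genes of the pathway lists (other basement membrane, integrin ligands, focal adhesion, adherens junction and desmosome partners, tight junction partners, protease inhibitors and ADAMTS substrates) were named if they passed between P1 and P28. Marker lists were cardiomyocyte, endothelial, fibroblast, mural, leukocyte, mesothelial and epicardial, Schwann and neuronal, erythroid and cycling cell; a marker that was named only as an example was chosen after its values were seen. Intervals cover the spread between libraries in the fit.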

Additional observations from a re-analysis of the deposited data

How the results depend on the processing

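Counts of passing genes moved by more than 1.5 times under some alternatives, while no direction of the 25 passing gene results turned in 500 alternative values: 420 stayed past the threshold and 80 did not, and 11 of the 25 passed under every alternative. The cause of these changes was not tested. The alternatives reuse the same libraries, and some leave out a library of neither age compared, so unturned directions are weak evidence. Among the 4 ages, 12 genes passed, DESeq2 gave 24 (32.3% of all genes, against 21.4%) and an unadjusted p of 0.05 or less gave 27. Between P1 and P3, 0 passed, DESeq2 gave 1 and the study's looser rule 4. Between P1 and P7, 1 passed, against 3 with no filter on low counts (2.32% of all genes, against 2.01%), 7 in DESeq2, 4 in limma voom, 4 with only the 2 ages compared (6.24%), 3 without P1 library 4 and P3 library 5, and 13 under the looser rule. Between P1 and P28, 9 passed, against 14 in DESeq2 (19.7% of all genes, against 15.3%), 18 without those 2 libraries and 18 under the looser rule. Between P3 and P7, 0 passed, against 1 in DESeq2 and 3 under the looser rule. Between P7 and P28, 15 passed, and no alternative other than leaving out 1 library moved the count by more than 1.5 times.

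With each library left out in turn, the counts ran from 4 to 15 (29.7% of all genes) among the 4 ages, from 0 to 1 for P1 against P3, from 0 to 5 for P1 against P7, from 5 to 14 for P1 against P28, from 0 to 0 for P3 against P7 and from 7 to 18 (28.3% of all genes) for P7 against P28. An age left with 2 pigs was assumed to vary like the other ages.

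With the column number as a replicate block the counts were 12, 0, 1, 9, 0 and 15 in the same order (20.1%, 0.127%, 1.74%, 14.2%, 1.39% and 18.3% of all genes), and the 9 genes between P1 and P28 were the same. LAMA4 (edgeR adjusted p = 0.0571) and PCDHGB5 (0.0625) between P7 and P28 no longer passed with the block, and 13 of the 15 genes were the same as without it. Among the 4 ages, 11 of the 12 were the same. Deviations of libraries with the same number correlated at -0.186 to 0.331 over 18 pairs, 5 of them over 0.1, and at 0.0389 to 0.0768 between P7 and P28. Only between P1 and P28 were all 3 pairs over 0.1. The deviations were taken from the mean of the 3 libraries of an age, so the 3 pairs are not independent. Libraries of unlike numbers were not compared, so these values cannot show whether the numbers are shared there. With 3 pigs an age, genes with few counts such as CDH20, PCDHB7 and ADAMTS18 were measured with low precision.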
